A study of Mus musculus with 12 samples.

Results

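Transcripts of 52 genes of mitosis and the G2/M transition were followed in 12 libraries of cultured mouse cells. The genes were chosen by symbol, as mitotic cyclins and kinases and genes of the kinetochore, spindle and condensin complexes. All 52 were found among the 49315 genes of the count tables, and all 52 passed the filter on low counts, which left 17164 genes for testing. The cells were labelled primary Müller glia, the main glia of the retina, grown from whole neural retina and passaged 4 times. They were co-cultured in transwell plates with retinal pigment epithelium (RPE), also in primary culture. Before 2 h of co-culture, the RPE of 3 libraries was given PNU-282987 at 100 nM, abbreviated PNU, which activates α7 nicotinic acetylcholine receptors, and the RPE of 3 libraries its solvent DMSO. Another 3 libraries came from 6 h of co-culture with PNU-treated RPE and 3 from 6 h with DMSO-treated RPE. The PNU groups received the solvent too. The labels give it as 0.1% in one place and 1% in another. They give no age, sex or strain for the mice. The sample titles call all replicates biological, but how the cultures behind them were kept apart is left unstated. The p-values therefore reflect the spread of these samples alone, which may be technical.

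Cells that prepare to divide make mitotic genes in a wave that begins in S phase and peaks in G2 and mitosis. Cyclin B with Cdk1 drives entry into mitosis, condensin and topoisomerase II compact the chromosomes, and kinesins and kinetochores build and load the spindle. The spindle checkpoint then holds back the anaphase-promoting complex until every chromosome is attached. In resting cells the DREAM complex represses these genes, in large part through a promoter element named the cell cycle genes homology region (CHR). In dividing cells B-Myb and FoxM1 activate many of them, together with NF-Y, which binds CCAAT. Müller glia in the adult mammalian retina rarely divide, and their re-entry into the cell cycle is studied as a step towards regeneration.

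Library totals ranged from 44332013 to 66518799 counts, so 3 counts, the most that a count of 0 allows, correspond to 0.0451 to 0.0677 CPM (counts per 1000000 counts of the library; such floors cover counting error only). Libraries of a group were unevenly alike. The pairwise coefficient of variation was 0.0163 to 0.0223 between PNU replicates 2 and 3 at 2 h, PNU replicates 2 and 3 at 6 h and all pairs of DMSO libraries at 6 h, against 0.135 to 0.346 between the other pairs. A pair of libraries stood apart from their groups and close to libraries of the other treatment. By the root mean square difference in log2 CPM over all genes tested, the library labelled DMSO replicate 3 at 2 h lay nearest to PNU replicate 1 at 2 h, at 0.405, against 0.885 and 0.834 to the other DMSO libraries at 2 h. The library labelled PNU replicate 1 at 6 h lay 0.485 to 0.491 from the DMSO libraries at 6 h, against 0.703 and 0.709 from the other PNU libraries at 6 h. Whether their labels were exchanged was not tested, and each PNU over DMSO value below holds for the groups as labelled. The Y-linked gene Ddx3y, which depends on the sex of the cells, was at 0.141, 7.43 and 6.74 CPM with PNU at 6 h, against at most 0.141 CPM with DMSO at 6 h. At 2 h it was at 2.23, 0.0870 and 0.0150 CPM with PNU, against 0.0338, 0.0386 and 5.00 CPM with DMSO. The PNU libraries high in Ddx3y at 6 h, replicates 2 and 3, were also those high in the mitotic genes, and DMSO replicate 3 was high in both at 2 h. PNU replicate 1 at 2 h, high in Ddx3y for its group, had the lowest summed mitotic level of its group. The part of such differences between libraries in the results was not tested. Of 10 Müller glia markers, 7 had a median over 1 CPM. Their sum was 6287 to 7752 CPM, most of it Vim at 6063 to 7451 CPM, an intermediate filament gene that fibroblasts also express. Glul stood at 61.5 to 94.4 CPM, but Rlbp1 reached at most 0.302 CPM and Aqp4 at most 0.218 CPM. Of 8 fibroblast markers, 6 had a median over 1 CPM, with a summed level of 12687 to 17315 CPM, and Col1a1 stood at 3509 to 4895 CPM. The RPE enzyme Rpe65 stayed at or under 0.0442 CPM in every library. The name Müller glia is taken from the labels.

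Some markers of other cell types passed the test or did not overlap between PNU and DMSO. Of all genes tested, 0.291% passed at 2 h and 1.05% at 6 h, in either direction. The share of all genes without overlap was 22.7% at 2 h and 34.9% at 6 h. The fibroblast sum was 14952 to 15885 CPM with PNU at 6 h, against 15059 to 15112 CPM with DMSO at 6 h. Of its 8 genes, 3 were positive and 5 negative at 6 h, with a median log2 fold change of -0.30. Lum and Dcn, both matrix proteoglycans, fell at 6 h. Their log2 fold changes were -4.54 ± 0.68 (SE, adjusted p 0.0108 by edgeR) for Lum and -1.12 ± 0.23 (adjusted p 0.0467) for Dcn. At 2 h the fibroblast sum was 12687 to 14077 CPM with PNU, against 13172 to 17315 CPM with DMSO, and none passed. The sum of 8 pericyte and smooth muscle markers was higher with PNU without overlap, at 4099 to 4473 CPM with PNU at 2 h, against 3347 to 3896 CPM with DMSO at 2 h. At 6 h it was 3938 to 4051 CPM with PNU, against 3409 to 3481 CPM with DMSO. Of these markers Cspg4 rose at 2 h (0.86 ± 0.15, adjusted p 0.0385) and Mcam at 6 h (0.47 ± 0.08, adjusted p 0.0192). Of the 8, 5 had a median over 1 CPM and 6 were tested. At 2 h, 5 were positive and 1 negative, with a median log2 fold change of 0.056. At 6 h, 4 were positive and 2 negative, with a median of 0.28. Leukocyte and microglia markers, 6 genes, summed to 7.46 to 11.3 CPM with PNU at 6 h, against 2.00 to 2.94 CPM with DMSO at 6 h, and to 3.85 to 4.82 CPM with PNU at 2 h, against 2.07 to 4.25 CPM with DMSO at 2 h. Among them Csf1r rose at 6 h (1.81 ± 0.29, adjusted p 0.0141), and Ptprc, the general leukocyte marker, reached at most 0.235 CPM. Within PNU at 6 h that sum was highest in replicate 1, at 11.3 CPM, the library with the lowest mitotic sum of its group. Sums of 4 astrocyte markers were 2.16 to 3.06 CPM with PNU at 6 h, against 5.32 to 5.72 CPM with DMSO at 6 h. Only 1 of the 4 had a median over 1 CPM. Of the 3 tested, 2 were positive and 1 negative at 6 h, with a median log2 fold change of 1.09, and none passed. The part of these markers' cells in the mitotic results was not tested.

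The 52 genes together took 0.158% to 0.302% of all counts. Their summed level was 2649, 2870 and 2824 CPM in the PNU libraries at 2 h, against 1581, 1852 and 3024 CPM in the DMSO libraries at 2 h. At 6 h it was 1634, 2449 and 2437 CPM with PNU, against 1783, 1785 and 1807 CPM with DMSO. The groups overlapped at both times through a single library in each case. All 3 PNU libraries at 2 h lay above DMSO replicates 1 and 2, and DMSO replicate 3 lay above all of them. PNU replicates 2 and 3 at 6 h lay above all DMSO libraries at 6 h, and PNU replicate 1 lay below them. Group means were 2781 ± 117 CPM with PNU and 2153 ± 767 CPM with DMSO at 2 h, and 2173 ± 467 CPM with PNU and 1792 ± 13.2 CPM with DMSO at 6 h (SD, n = 3 each). In bulk RNA, fewer dividing cells and less mitotic RNA in each such cell cannot be told apart.

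**Figure D1:**
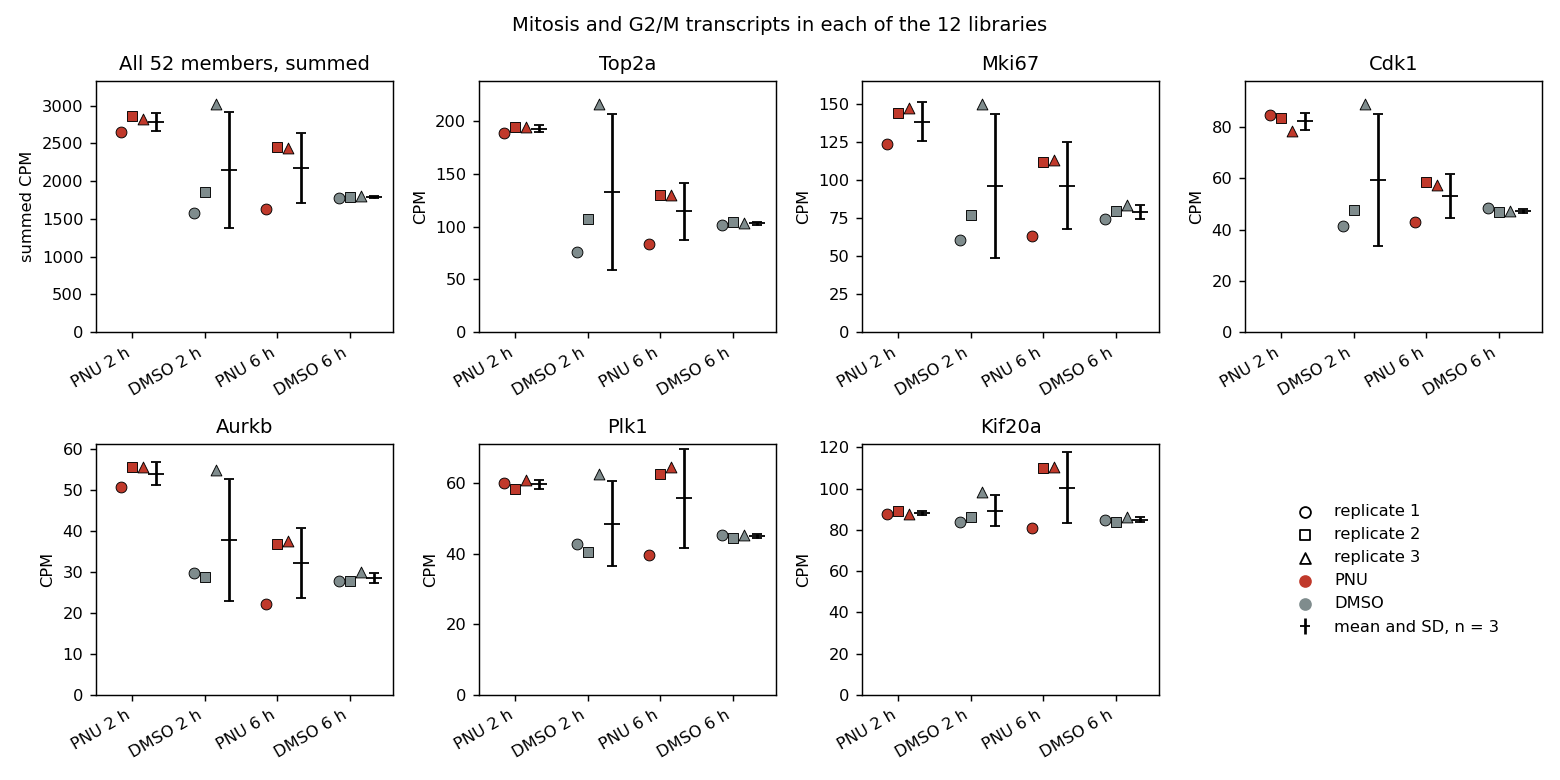
Level in CPM of the 52 genes summed and of 6 single genes, in each library by group (horizontal axis; symbols mark the replicate, bars the mean and SD of 3 libraries). DMSO replicate 3 at 2 h sits with or above the PNU libraries at 2 h in the sum, at 3024 CPM, and PNU replicate 1 at 6 h sits at 1634 CPM, below the DMSO libraries at 6 h.

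The genes moved as a block from library to library. DMSO replicate 3 at 2 h exceeded both other DMSO libraries of that time for 51 of 52 members, which was so for 37.5% of all genes tested, and it exceeded all 3 PNU libraries at 2 h for 40 members (36.6% of all genes). It held the highest of the 12 values for 35 members, and DMSO replicate 1 at 2 h held the lowest for 31. PNU replicate 1 at 6 h lay below both other PNU libraries of that time for 51 members (44.5% of all genes) and held the lowest of the 12 values for 17. All 3 PNU libraries at 2 h exceeded DMSO replicates 1 and 2 for 50 members (27.4% of all genes). PNU replicates 2 and 3 at 6 h exceeded all 3 DMSO libraries at 6 h for all 52 members (31.1% of all genes).

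The size of these library differences varied by gene. The level in DMSO replicate 3 at 2 h over the mean of replicates 1 and 2 had a median of 1.77 over the members, and ran between 1.12 for Cdc25b and 2.37 for Top2a. The level in PNU replicate 1 at 6 h over the mean of replicates 2 and 3 had a median of 0.658, with Ncapg lowest at 0.534 and Hmgb2 highest at 1.09. Over all 12 libraries the highest level exceeded the lowest by 3.19-fold for Smc2, 2.90-fold for Bub1 and 2.85-fold for Top2a, and by 1.32-fold for Cks1b, 1.37-fold for Kif20a and 1.38-fold for Ccnb2. As a description over the 12 libraries, which share groups and cultures, Pearson's r was taken between a gene's log2 CPM and the log2 of the summed CPM of the other 51. It was 0.991 for Ccnb1 and 0.990 for both Ccna2 and Mki67. It was lowest for Ckap2 at 0.436, Kif20a at 0.552 and Cdc25b at 0.693.

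**Figure D2:**
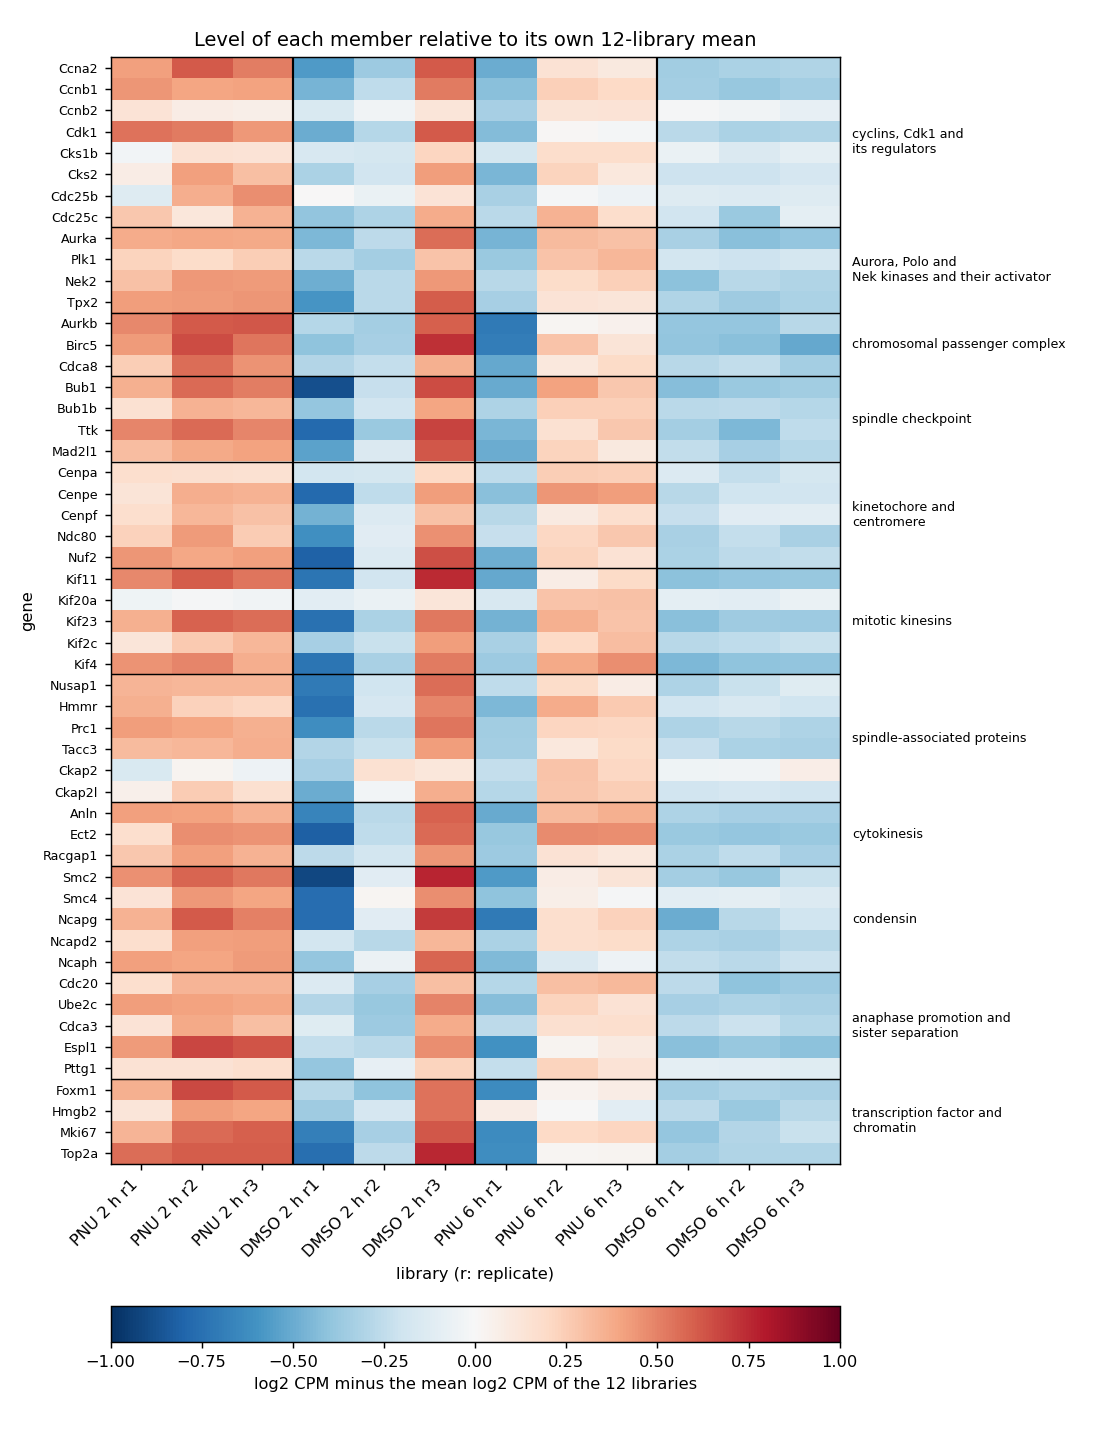
Log2 CPM of each of the 52 genes minus its own mean over the 12 libraries (colour), with genes in rows by role and libraries in columns by group. Nearly all rows are high in the 3 PNU libraries and DMSO replicate 3 at 2 h, lower in DMSO replicates 1 and 2 at 2 h, PNU replicate 1 at 6 h and the DMSO libraries at 6 h, and Kif20a and Ckap2 are among the palest rows at 2 h.

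Levels per kilobase of gene length, averaged over the 12 libraries, were highest for Cks2 (42.5 CPM per kb) and Cks1b (35.2 CPM per kb), small subunits that bind cyclin-dependent kinases. Cdc20 followed at 29.2 CPM per kb, Kif20a at 23.9 and Plk1 at 23.7. The lowest were Ncapg at 1.78 CPM per kb and Cenpf at 2.28 CPM per kb, and the median of the members was 8.98 CPM per kb. A total of 17 members share exon bases with another annotated gene, and whether the authors counted by strand is not stated. For Kif20a, 33.2% of its exon bases lie opposite exons of Cdc23, a subunit of the anaphase-promoting complex with a mean of 57.5 CPM, so the Kif20a count is uncertain. Smaller shares were 15.1% of Kif4 opposite Pdzd11, 13.4% of Ncapg opposite Lcorl and 12.5% of Ccna2 opposite Exosc9. For Ube2c, 22.8% of the exon bases lie opposite Tnnc2, which had a mean of 0.0427 CPM.

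The promoters of the members share 2 short motifs that the choice of genes did not use. RefSeq promoters of the mouse genome (build GRCm38.p6, 250 bases before the start of the gene and 50 from it on) were found for 45 of the 52 members. None was found for Aurkb, Foxm1, Ccna2, Smc4, Cdc25c, Kif20a and Tpx2. The letters TTTGAA of the CHR, and as its variant TTCGAA, were searched on both strands, as was CCAAT, the NF-Y box. A CHR match and a CCAAT match overlapped in 1 pair among the members, in Cdca8. A CHR match was present in 34 of the 45 promoters, or 75.6% (exact binomial 95% interval 60.5% to 87.1%), against 16.1% of the promoters of all 11545 genes tested that have one in the table. CCAAT was present in 35, or 77.8% (62.9% to 88.8%), against 42.4% of all. Both kinds were present in 31, or 68.9% (53.4% to 81.8%), against 6.73% of all. A match is a description of letters and no evidence of binding.

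The promoters printed here show the arrangement in some of the members, each with 150 bases before the start and 30 from it on, 5′ to 3′ on the strand of the gene. Capitals mark the CHR letters and the NF-Y box on either strand, so that a box on the opposite strand reads ATTGG.
Cdk1 (GRCm38.p6, chr10:69352883-69353062, minus strand): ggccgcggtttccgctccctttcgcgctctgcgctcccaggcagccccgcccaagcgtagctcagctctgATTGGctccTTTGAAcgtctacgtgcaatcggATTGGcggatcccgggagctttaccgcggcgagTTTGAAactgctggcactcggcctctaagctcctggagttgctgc
Ccnb1 (GRCm38.p6, chr13:100786457-100786636, minus strand): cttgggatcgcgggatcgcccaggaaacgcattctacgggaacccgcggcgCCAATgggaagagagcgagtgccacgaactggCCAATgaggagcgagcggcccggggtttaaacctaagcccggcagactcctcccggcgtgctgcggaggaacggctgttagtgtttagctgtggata
Ccnb2 (GRCm38.p6, chr9:70421525-70421704, minus strand): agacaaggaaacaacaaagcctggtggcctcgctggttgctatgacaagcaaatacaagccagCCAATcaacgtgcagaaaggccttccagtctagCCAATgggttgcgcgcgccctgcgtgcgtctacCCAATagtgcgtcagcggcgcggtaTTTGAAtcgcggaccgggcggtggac
Cdc20 (GRCm38.p6, chr4:118437314-118437493, minus strand): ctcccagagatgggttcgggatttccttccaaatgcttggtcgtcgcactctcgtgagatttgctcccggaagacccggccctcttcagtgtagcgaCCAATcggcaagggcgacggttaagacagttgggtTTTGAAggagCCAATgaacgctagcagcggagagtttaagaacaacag
Espl1 (GRCm38.p6, chr15:102296143-102296322, plus strand): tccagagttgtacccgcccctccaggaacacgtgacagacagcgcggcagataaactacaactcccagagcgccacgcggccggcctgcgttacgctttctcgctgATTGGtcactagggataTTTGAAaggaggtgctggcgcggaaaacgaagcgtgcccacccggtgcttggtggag
Top2a (GRCm38.p6, chr11:99024160-99024339, minus strand): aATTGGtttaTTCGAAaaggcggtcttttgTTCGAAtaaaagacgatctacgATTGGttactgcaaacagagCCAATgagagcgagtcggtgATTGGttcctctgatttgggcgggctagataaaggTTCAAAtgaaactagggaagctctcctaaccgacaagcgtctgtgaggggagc
Ncaph (GRCm38.p6, chr2:127133925-127134104, minus strand): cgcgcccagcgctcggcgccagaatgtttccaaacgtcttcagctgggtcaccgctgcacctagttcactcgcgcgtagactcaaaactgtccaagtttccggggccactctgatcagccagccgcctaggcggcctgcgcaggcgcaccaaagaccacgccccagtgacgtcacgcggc
Cdk1, Ccnb2 and Cdc20 carry CCAAT boxes upstream of, or interleaved with, a CHR match close to the start. Ccnb1 has 2 CCAAT boxes and no CHR match in the window, and Ncaph has neither. Top2a has 6 CCAAT and 4 CHR matches in its whole window, the densest of those shown. The CHR matches clustered at the start site: of 47 in the 34 promoters, 32 began between 40 bases before and 44 bases after it.

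**Figure D3:**
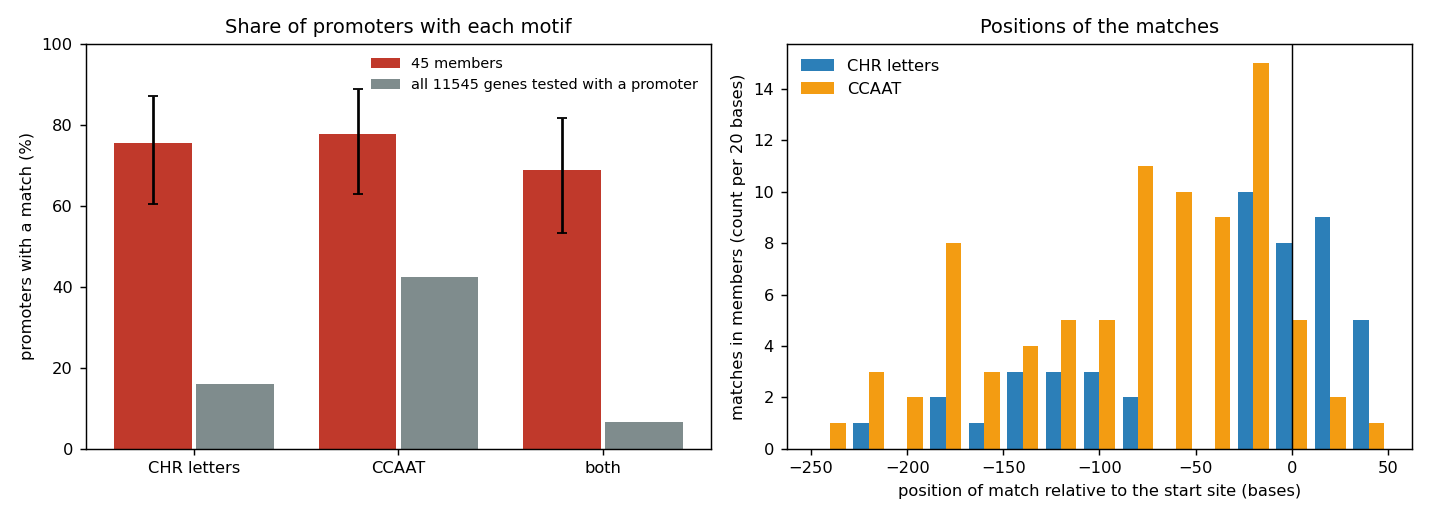
Left, percentage of RefSeq promoters with CHR letters, CCAAT or both, for 45 members (red, bars: exact binomial 95% interval) and all 11545 genes tested that have a promoter in the table (grey). Right, number of matches in the members per 20 bases by position relative to the start site; CHR matches are most frequent close to the start and CCAAT matches upstream of it.

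Members with and without both kinds of motif were set side by side. The median log2 fold change of PNU over DMSO at 2 h was 0.40 over the 31 members with both kinds and 0.38 over the 14 with fewer. At 6 h the median was 0.30 over the members with both kinds and 0.33 over those with fewer. For PNU at 6 h over PNU at 2 h it was -0.39 over the members with both kinds and -0.38 over those with fewer. These are descriptions, with no test.

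With PNU at 2 h, 51 of the 52 members had a positive log2 fold change over DMSO, as had 48.3% of all genes tested. The median was 0.39, against -0.015 over all genes, and values ran between -0.011 for Ckap2 and 0.62 for Kif23. None passed the test at an adjusted p of 0.05 (edgeR, Benjamini-Hochberg over all genes), where 0.291% of all genes passed. DESeq2 and limma-voom called 0 as well. At an unadjusted p under 0.05 there were 8 members, or 15.4%, against 12.3% of all genes in the same direction. No member had all 3 PNU libraries above all 3 DMSO libraries, against 9.06% of all genes. The smallest adjusted p was 0.0991, for Espl1. A single library decided this outcome: without DMSO replicate 3 at 2 h, 48 members passed, all higher with PNU, and their median log2 fold change over the 52 was 0.76. Of all genes, 20.9% then passed in that direction and 43.8% in either. This library was singled out from these same data, where it lay close to the PNU libraries, so the count without it is a description only. The 4 that did not pass then were Ccnb2, Cdc25b, Ckap2 and Kif20a.

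With PNU at 6 h, all 52 members had a positive log2 fold change over DMSO, as had 49.3% of all genes. The median was 0.30, against -0.0049 over all genes, and values ran between 0.023 for Cdc25b and 0.63 for Kif4. None passed the test, where 1.05% of all genes did, and DESeq2 and limma-voom called 0 as well. At an unadjusted p under 0.05 there were 3 members, Kif4, Kif20a and Cdc20, against 8.61% of all genes in that direction. Kif4, Ndc80, Nek2 and Hmgb2 had all 3 PNU libraries above all 3 DMSO libraries, against 14.1% of all genes. Without PNU replicate 1 at 6 h, Cdc20 and Kif20a passed, against 3.52% of all genes in that direction, and the median was 0.47. DMSO replicate 3 at 2 h enters here only through the shared spread, the low-count filter and the scaling. Without it, Cdc20, Hmgb2, Kif4 and Nek2 passed, against 4.77% of all genes. With both of these libraries left out, 48 members passed, all higher with PNU, against 14.2% of all genes. Both were singled out from these same data, where they lay close to the other treatment, so counts without them are descriptions only. The 4 others were Cdc25b, Ckap2, Ncaph and Smc4.

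**Figure D4:**
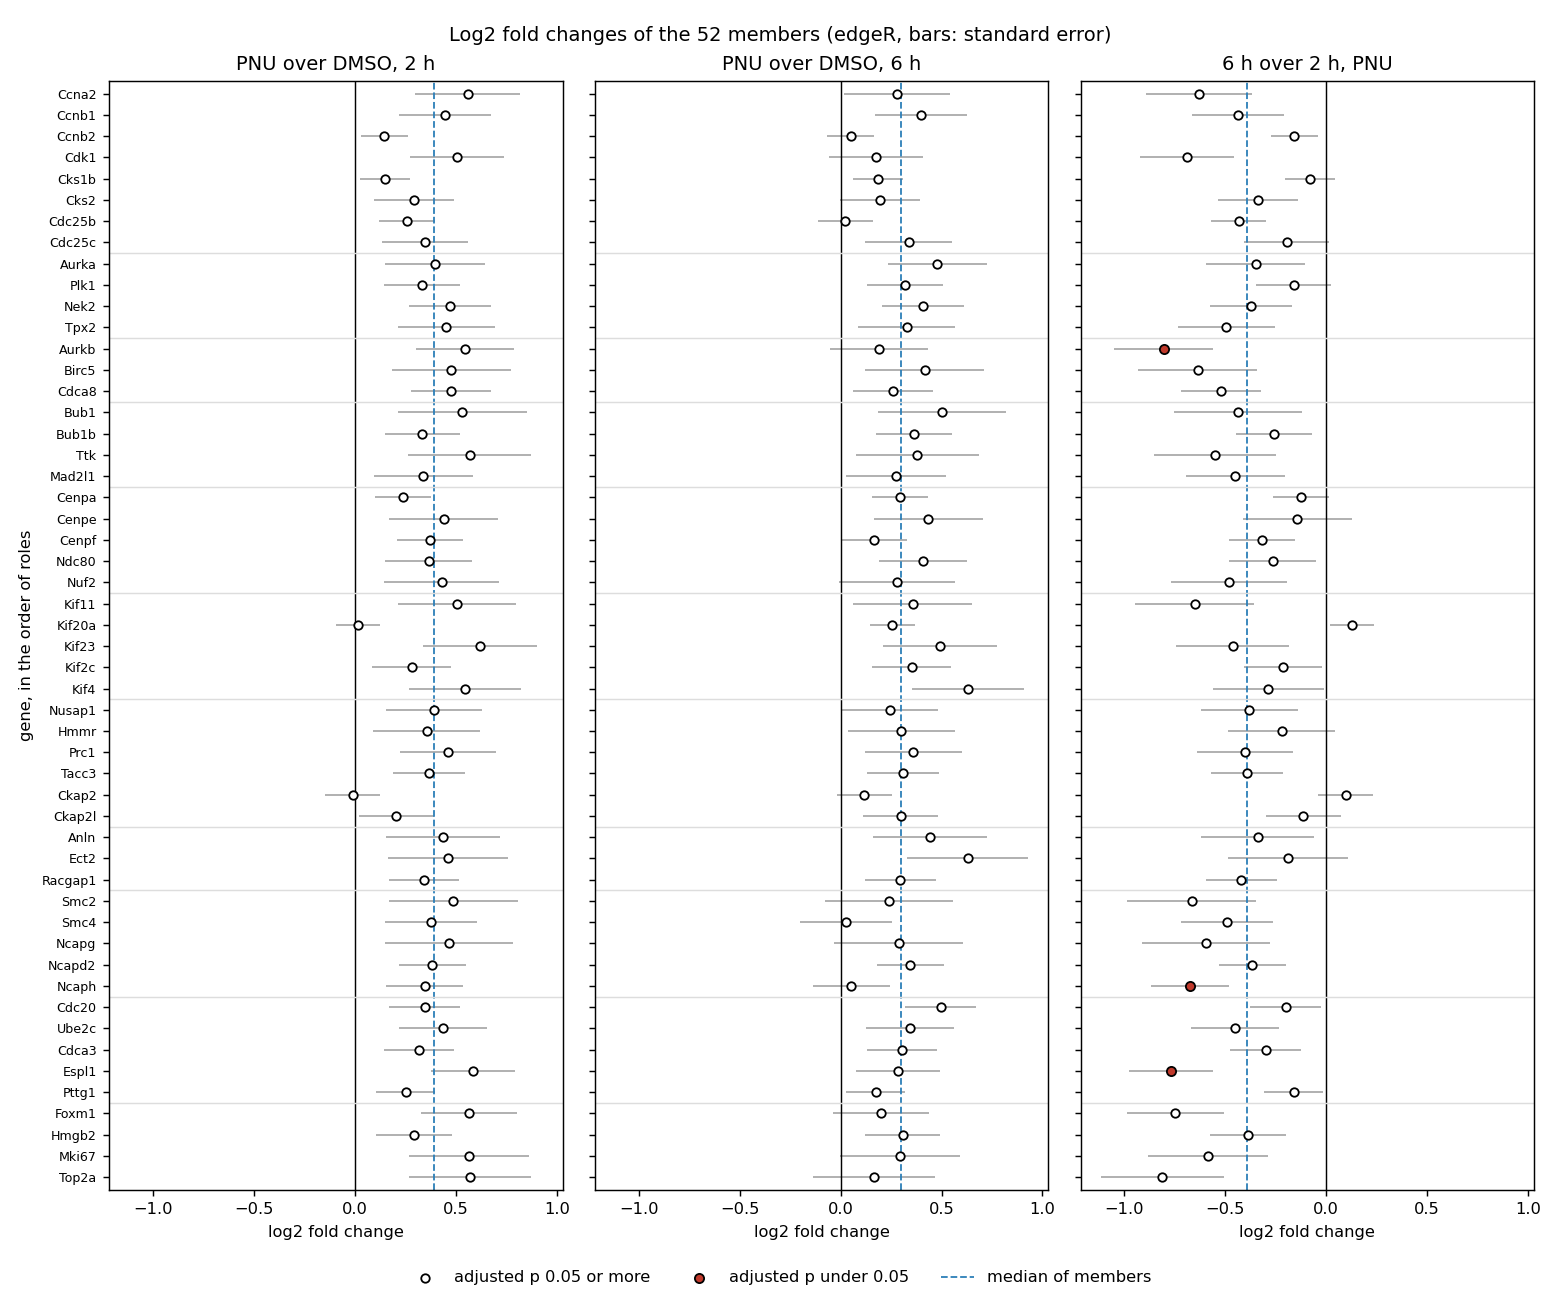
Log2 fold change of each of the 52 genes (rows, by role) for PNU over DMSO at 2 h, PNU over DMSO at 6 h and PNU at 6 h over PNU at 2 h, with its standard error (bars) and the members' median (dashed). Filled points passed an adjusted p of 0.05 (edgeR): none at 2 h or 6 h, and Espl1, Ncaph and Aurkb in the third panel.

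Cyclins, Cdk1 and its regulators were 8 genes, with a median log2 fold change of 0.32 for PNU over DMSO at 2 h and 0.19 at 6 h. Cdk1, the kinase of mitotic entry (ENSMUSG00000019942, GRCm38 chr10:69336635-69352938, minus strand), stood at 84.8, 83.4 and 78.4 CPM with PNU at 2 h, against 41.2, 47.7 and 89 CPM with DMSO at 2 h, and at 43.1, 58.7 and 57.5 CPM with PNU at 6 h, against 48.3, 46.8 and 47.1 CPM with DMSO at 6 h. DMSO replicate 3 at 2 h was the highest of the 12 values, and PNU replicate 1 at 6 h lay below all DMSO libraries of that time. The log2 fold change was 0.51 ± 0.23 (SE) at 2 h, with an adjusted p of 0.170, and 0.18 ± 0.23 at 6 h, with an adjusted p of 0.759. Ccnb1, the cyclin that activates Cdk1 in mitosis (ENSMUSG00000041431, GRCm38 chr13:100778650-100786570, minus strand), stood at 69.8, 67.8 and 68 CPM with PNU at 2 h, against 37.3, 43.2 and 74 CPM with DMSO at 2 h. Its 6 h values were 38.5, 60.6 and 59.1 CPM with PNU, against 40.7, 39.7 and 40.8 CPM with DMSO, with PNU replicates 2 and 3 above the rest. Its log2 fold change was 0.45 ± 0.23 at 2 h and 0.40 ± 0.23 at 6 h. Ccna2, the cyclin of S phase and G2, stood at 74.4, 85.8 and 80.1 CPM with PNU at 2 h, against 37.8, 43.5 and 85.7 CPM with DMSO at 2 h. Its log2 fold change was 0.56 ± 0.26 at 2 h and 0.28 ± 0.26 at 6 h, where it stood at 39.8, 62.1 and 59.8 CPM with PNU, against 44, 45.1 and 45.4 CPM with DMSO. Ccnb2 and Cks1b were flatter, at 24.6 to 34.1 CPM and 34.8 to 45.8 CPM over the 12 libraries. Cdc25b, a phosphatase that activates Cdk1, stood at 30.3, 42.6 and 45.6 CPM with PNU at 2 h, against 33.2, 31.7 and 36.4 CPM with DMSO at 2 h, so that PNU replicate 1 lay below all 3 DMSO libraries. At 6 h Cdc25b stood at 26.5, 32.8 and 32.1 CPM with PNU, against 30.2, 30.2 and 30.4 CPM with DMSO, a log2 fold change of 0.023 ± 0.14, the smallest of the 52. Cdc25c, a related phosphatase, was the least abundant member, at a mean of 6.68 CPM.

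Aurora, Polo and Nek kinases and the Aurora A activator Tpx2 had medians of 0.43 at 2 h and 0.37 at 6 h. Aurka, the kinase of centrosome maturation, stood at 42, 42.3 and 42.2 CPM with PNU at 2 h, against 23.8, 27 and 47.7 CPM with DMSO at 2 h, and at 23.5, 40.4 and 39.7 CPM with PNU at 6 h, against 26, 24.2 and 24.8 CPM with DMSO at 6 h. The groups were split by the same libraries as for Cdk1. Its log2 fold change was 0.40 ± 0.25 at 2 h (adjusted p 0.285) and 0.48 ± 0.25 at 6 h (adjusted p 0.382). Plk1, the Polo-like kinase of spindle assembly and mitotic exit (ENSMUSG00000030867, GRCm38 chr7:122159439-122169873, plus strand), stood at 60.0, 58.2 and 60.8 CPM with PNU at 2 h, against 42.6, 40.5 and 62.5 CPM with DMSO at 2 h, and at 39.6, 62.6 and 64.7 CPM with PNU at 6 h, against 45.3, 44.4 and 45.4 CPM with DMSO at 6 h, so that PNU replicates 2 and 3 were the highest of the 12 and replicate 1 the lowest. Its log2 fold change was 0.33 ± 0.19 at 2 h and 0.32 ± 0.19 at 6 h. Tpx2 stood between 59.0 and 134.9 CPM and Nek2, a centrosomal kinase, between 21.9 and 41.7 CPM.

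The chromosomal passenger complex, which corrects faulty spindle attachments, had medians of 0.48 at 2 h and 0.26 at 6 h. Its kinase Aurkb (ENSMUSG00000020897, GRCm38 chr11:69045647-69051664, plus strand) stood at 50.7, 55.5 and 55.8 CPM with PNU at 2 h, against 29.8, 28.7 and 55 CPM with DMSO at 2 h, and at 22.3, 36.8 and 37.5 CPM with PNU at 6 h, against 27.7, 27.8 and 29.9 CPM with DMSO at 6 h, with PNU replicate 1 the lowest of all 12. Its log2 fold change was 0.55 ± 0.24 at 2 h (adjusted p 0.162) and 0.19 ± 0.24 at 6 h (adjusted p 0.755). Birc5, known as survivin, stood at 37.2, 43.6 and 40.2 CPM with PNU at 2 h, against 20.9, 22 and 45.9 CPM with DMSO at 2 h, and at 17.2, 33.7 and 30.2 CPM with PNU at 6 h, against 21.1, 20.8 and 19.4 CPM with DMSO at 6 h. Birc5 had log2 fold changes of 0.48 ± 0.29 at 2 h and 0.42 ± 0.30 at 6 h. Cdca8, known as borealin, ranged over 10.7 to 22.4 CPM.

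Spindle checkpoint genes had medians of 0.44 at 2 h and 0.37 at 6 h. Bub1, a checkpoint kinase at kinetochores, stood at 18.5, 21.4 and 20.6 CPM with PNU at 2 h, against 7.84, 12.3 and 22.7 CPM with DMSO at 2 h. DMSO replicate 1 was the lowest of the 12 libraries and replicate 3 the highest. At 6 h Bub1 stood at 10.2, 19.1 and 17.4 CPM with PNU, against 10.7, 11.2 and 11.3 CPM with DMSO. Bub1 had log2 fold changes of 0.53 ± 0.32 at 2 h and 0.50 ± 0.32 at 6 h. Bub1b, its relative that inhibits Cdc20, stood at 41.7, 48 and 47.2 CPM with PNU at 2 h, against 28.7, 33 and 49.4 CPM with DMSO at 2 h, and at 30.4, 44.5 and 44.4 CPM with PNU at 6 h, against 31.2, 31.3 and 30.9 CPM with DMSO at 6 h. Bub1b had log2 fold changes of 0.33 ± 0.19 at 2 h and 0.36 ± 0.19 at 6 h. Ttk, the kinase that starts checkpoint signalling, ranged over 7.08 to 19.4 CPM and Mad2l1, which captures Cdc20, over 23.9 to 53.3 CPM.

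Kinetochore and centromere genes had medians of 0.37 at 2 h and 0.29 at 6 h. Cenpa, the centromeric histone variant, stood at 38.3, 38 and 37.9 CPM with PNU at 2 h, against 29.9, 30.1 and 39.2 CPM with DMSO at 2 h, and at 28.5, 40.4 and 40.2 CPM with PNU at 6 h, against 31, 28.8 and 30.1 CPM with DMSO at 6 h. Cenpa had log2 fold changes of 0.24 ± 0.14 at 2 h and 0.29 ± 0.14 at 6 h. Cenpe, a kinetochore motor, stood at 31, 36.5 and 36 CPM with PNU at 2 h, against 16.6, 23.7 and 37.9 CPM with DMSO at 2 h, and at 21.2, 38.6 and 37.9 CPM with PNU at 6 h, against 23.4, 24.7 and 24.8 CPM with DMSO at 6 h. Cenpe had log2 fold changes of 0.44 ± 0.27 at 2 h and 0.44 ± 0.27 at 6 h. PNU replicates 2 and 3 at 6 h exceeded all PNU libraries at 2 h for both of these genes. Ndc80, which holds microtubule ends together with Nuf2, had 12.6, 17 and 17.8 CPM with PNU at 6 h, against 11.8, 12.5 and 11.8 CPM with DMSO at 6 h, without overlap but with an adjusted p of 0.397.

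Mitotic kinesins held the largest fold change of the set at each time, Kif23 at 2 h and Kif4 at 6 h, and had medians of 0.51 at 2 h and 0.36 at 6 h. Kif23, a motor of the central spindle, stood at 38.8, 45.7 and 44.6 CPM with PNU at 2 h, against 18, 24.3 and 43.8 CPM with DMSO at 2 h, a log2 fold change of 0.62 ± 0.28 (adjusted p 0.166). Kif4, a chromosome-bound kinesin (ENSMUSG00000034311, GRCm38 chrX:100625737-100727214, plus strand), stood at 15.6, 26.1 and 27.6 CPM with PNU at 6 h, against 14.7, 15.2 and 15.3 CPM with DMSO at 6 h. All PNU libraries lay above all DMSO libraries there, replicate 1 narrowly, and the log2 fold change was 0.63 ± 0.28 (unadjusted p 0.0437, adjusted p 0.304). At 2 h its values were 27.3, 28 and 25.7 CPM with PNU, against 12.1, 16 and 28.8 CPM with DMSO. Kif11, which pushes spindle poles apart, stood at 41.5, 45.4 and 43.1 CPM with PNU at 2 h, against 17.9, 26 and 49.9 CPM with DMSO at 2 h, and at 20.9, 31.4 and 33.9 CPM with PNU at 6 h, against 22.4, 22.7 and 22.8 CPM with DMSO at 6 h. Kif11 had log2 fold changes of 0.51 ± 0.29 at 2 h and 0.36 ± 0.29 at 6 h. Kif20a, a kinesin of cytokinesis, stood at 87.5, 89.4 and 87.9 CPM with PNU at 2 h, against 83.9, 86.1 and 98.2 CPM with DMSO at 2 h, a log2 fold change of 0.016 ± 0.11, and at 80.7, 109.9 and 111 CPM with PNU at 6 h, against 84.6, 83.9 and 86.4 CPM with DMSO at 6 h, a log2 fold change of 0.26 ± 0.11, with PNU replicates 2 and 3 the highest of the 12 libraries. Its overlap with Cdc23 stands beside these values and its part in them was not tested.

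Spindle-associated proteins had medians of 0.36 at 2 h and 0.30 at 6 h. Nusap1, which bundles spindle microtubules, stood at 30.2, 30.1 and 30.1 CPM with PNU at 2 h, against 14.7, 20.8 and 35.2 CPM with DMSO at 2 h, and at 20.0, 27.1 and 25.1 CPM with PNU at 6 h, against 19.3, 20.5 and 21.9 CPM with DMSO at 6 h. Nusap1 had log2 fold changes of 0.39 ± 0.24 at 2 h and 0.24 ± 0.24 at 6 h. Hmmr, a microtubule-associated protein of the spindle poles, stood at 35, 32.1 and 31.6 CPM with PNU at 2 h, against 16.3, 24.4 and 38.5 CPM with DMSO at 2 h, and at 20.1, 35.4 and 32.9 CPM with PNU at 6 h, against 24, 24.6 and 23.9 CPM with DMSO at 6 h. Hmmr had log2 fold changes of 0.36 ± 0.26 at 2 h and 0.30 ± 0.27 at 6 h. Ckap2, another spindle protein, differed in its order of libraries. It stood at 45.2, 51.2 and 48.3 CPM with PNU at 2 h, against 39.9, 55.6 and 54.3 CPM with DMSO at 2 h, a log2 fold change of -0.011 ± 0.14, the lowest of the 52. Here DMSO replicates 2 and 3 both exceeded all PNU libraries at 2 h. Prc1, which cross-links the central spindle, Tacc3 and Ckap2l ranged over 41.5 to 92.6 CPM, 37.4 to 63.4 CPM and 22.3 to 40.6 CPM.

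Cytokinesis genes had medians of 0.44 at 2 h and 0.44 at 6 h. Anln, the scaffold of the contractile ring, stood at 129, 128 and 123 CPM with PNU at 2 h, against 61.2, 80.2 and 146 CPM with DMSO at 2 h, and at 68.1, 120.3 and 124 CPM with PNU at 6 h, against 78.1, 77 and 77.1 CPM with DMSO at 6 h. Anln had log2 fold changes of 0.44 ± 0.28 at 2 h and 0.44 ± 0.28 at 6 h. Ect2, the exchange factor that activates RhoA at the cleavage furrow, stood at 28.4, 35 and 34.7 CPM with PNU at 2 h, against 14.4, 21.3 and 37.4 CPM with DMSO at 2 h, and at 19.5, 35.1 and 34.9 CPM with PNU at 6 h, against 19.5, 19.4 and 19.5 CPM with DMSO at 6 h. PNU replicates 2 and 3 at 6 h were far above a tight DMSO group, and PNU replicate 1 was level with it. The log2 fold changes were 0.46 ± 0.30 at 2 h and 0.63 ± 0.30 at 6 h, with an adjusted p of 0.342 at 6 h. Racgap1, which acts with Kif23, ranged over 59.5 to 104.0 CPM.

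Condensin genes had medians of 0.38 at 2 h and 0.24 at 6 h. Smc2, a part of the ATPase core, stood at 56.6, 61.8 and 59.6 CPM with PNU at 2 h, against 22, 38.3 and 70.1 CPM with DMSO at 2 h, and at 28, 43.6 and 45.3 CPM with PNU at 6 h, against 32.7, 31.8 and 35.4 CPM with DMSO at 6 h. Smc2 had log2 fold changes of 0.49 ± 0.32 at 2 h and 0.24 ± 0.32 at 6 h. Its partner Smc4 stood at 63.1, 77.4 and 75.4 CPM with PNU at 2 h, against 33.9, 58.2 and 78.9 CPM with DMSO at 2 h, and at 43.4, 59.7 and 56.9 CPM with PNU at 6 h, against 53.3, 53.4 and 52 CPM with DMSO at 6 h. Smc4 had log2 fold changes of 0.38 ± 0.23 at 2 h and 0.025 ± 0.23 at 6 h. Fold changes at 6 h were smallest here for Smc4 and for Ncaph, a subunit of condensin I, at 0.053 ± 0.19.

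Genes of anaphase promotion and sister separation had medians of 0.35 at 2 h and 0.31 at 6 h. Cdc20, the activator of the anaphase-promoting complex (ENSMUSG00000006398, GRCm38 chr4:118432901-118437352, minus strand), stood at 59.9, 67.4 and 67.5 CPM with PNU at 2 h, against 48.5, 42.5 and 65.8 CPM with DMSO at 2 h, and at 43.8, 65.9 and 66.9 CPM with PNU at 6 h, against 44.6, 40.4 and 41.6 CPM with DMSO at 6 h, with PNU replicate 1 between the DMSO libraries. The log2 fold change was 0.35 ± 0.18 at 2 h and 0.49 ± 0.18 at 6 h, with an unadjusted p of 0.0171 and the smallest adjusted p of the set at that time, 0.205. Ube2c, the ubiquitin-conjugating enzyme of that complex, stood at 59.6, 58.7 and 58.1 CPM with PNU at 2 h, against 36.4, 34.2 and 62.8 CPM with DMSO at 2 h, and at 33.3, 52 and 49.3 CPM with PNU at 6 h, against 35.5, 35.9 and 35.6 CPM with DMSO at 6 h. Ube2c had log2 fold changes of 0.44 ± 0.22 at 2 h and 0.34 ± 0.22 at 6 h. Espl1, the protease separase that cuts cohesin (ENSMUSG00000058290, GRCm38 chr15:102296293-102324356, plus strand), stood at 38.8, 45.8 and 44.7 CPM with PNU at 2 h, against 24.4, 24 and 39.7 CPM with DMSO at 2 h. PNU replicates 2 and 3 exceeded every DMSO library, and PNU replicate 1 was below DMSO replicate 3. The log2 fold change was 0.59 ± 0.21. Pttg1, the securin that holds separase inactive, ranged over 10.9 to 16.6 CPM.

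The transcription factor and chromatin genes had a median of 0.56 at 2 h, the highest of the 11 roles, and 0.25 at 6 h. Top2a, the topoisomerase of chromosome condensation (ENSMUSG00000020914, GRCm38 chr11:98992943-99024189, minus strand) and the most abundant member in CPM, stood at 189, 195 and 195 CPM with PNU at 2 h, against 76.1, 107 and 217 CPM with DMSO at 2 h, and at 83.3, 129.9 and 130.4 CPM with PNU at 6 h, against 101, 104 and 104 CPM with DMSO at 6 h. Its log2 fold change was 0.57 ± 0.30 at 2 h (adjusted p 0.221) and 0.16 ± 0.30 at 6 h (adjusted p 0.837). Mki67, the proliferation marker Ki-67, stood at 124, 144 and 147 CPM with PNU at 2 h, against 60.6, 77.1 and 150.0 CPM with DMSO at 2 h, and at 63.1, 112 and 113 CPM with PNU at 6 h, against 74.5, 79.3 and 83.3 CPM with DMSO at 6 h. Mki67 had log2 fold changes of 0.56 ± 0.30 at 2 h and 0.30 ± 0.30 at 6 h. Foxm1, the transcription factor of many of these genes, stood at 70.8, 87.6 and 84.9 CPM with PNU at 2 h, against 45.6, 41.9 and 80.5 CPM with DMSO at 2 h, and at 35.9, 56.9 and 58.2 CPM with PNU at 6 h, against 43.8, 44.6 and 44.3 CPM with DMSO at 6 h. Foxm1 had log2 fold changes of 0.56 ± 0.24 at 2 h and 0.20 ± 0.24 at 6 h. Hmgb2, a DNA-bending protein, stood at 35, 43 and 42.3 CPM with PNU at 2 h, against 25.1, 28.6 and 46.8 CPM with DMSO at 2 h, and at 33.8, 32 and 29.9 CPM with PNU at 6 h, against 26.8, 24.9 and 26.5 CPM with DMSO at 6 h. It was the member in which PNU replicate 1 was the highest of its group, and its groups did not overlap at 6 h. The log2 fold changes were 0.29 ± 0.19 at 2 h and 0.31 ± 0.19 at 6 h.

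Between the PNU groups, 50 of the 52 members had a negative log2 fold change of 6 h over 2 h, where 52.4% of all genes had a positive one. The median was -0.39, against 0.025 over all genes. Espl1, Ncaph and Aurkb fell, and no member rose, where 7.42% of all genes passed in the higher direction. These 3 are 5.77% of the members, against 8.66% of all genes that passed in the lower direction. Espl1 had 19, 29.4 and 30.7 CPM with PNU at 6 h, against 38.8, 45.8 and 44.7 CPM with PNU at 2 h, a log2 fold change of -0.77 ± 0.21 (SE) and an adjusted p of 0.0316. Ncaph (ENSMUSG00000034906, GRCm38 chr2:127103809-127133954, minus strand) had 18.6, 22.9 and 24.4 CPM with PNU at 6 h, against 33.5, 33.3 and 34.1 CPM with PNU at 2 h, a log2 fold change of -0.68 ± 0.19 and an adjusted p of 0.0375. Aurkb had 22.3, 36.8 and 37.5 CPM with PNU at 6 h, against 50.7, 55.5 and 55.8 CPM with PNU at 2 h, a log2 fold change of -0.81 ± 0.25 and an adjusted p of 0.0468. In all 3 genes every library at 6 h lay below every library at 2 h. That was so for 29 members, or 55.8%, against 21.0% of all genes, and an unadjusted p under 0.05 was reached by 13 members, or 25.0%, against 17.3% of all genes in that direction.

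The role medians for PNU at 6 h over 2 h spread widely. They were -0.67 for the transcription factor and chromatin genes, -0.64 for the chromosomal passenger complex and -0.60 for condensin. They came to -0.27 for kinetochore genes and -0.29 for kinesins. Top2a had 83.3, 129.9 and 130.4 CPM with PNU at 6 h, against 189, 195 and 195 CPM with PNU at 2 h, a log2 fold change of -0.81 ± 0.30 with an adjusted p of 0.0855. Cdk1 had a log2 fold change of -0.69 ± 0.23 and Foxm1 of -0.75 ± 0.24, with adjusted p of 0.0645 for Cdk1 and 0.0553 for Foxm1. Plk1 was nearly level, with 39.6, 62.6 and 64.7 CPM with PNU at 6 h, against 60.0, 58.2 and 60.8 CPM with PNU at 2 h and a log2 fold change of -0.16 ± 0.19. Kif20a had 0.13 ± 0.11 and Ckap2 0.097 ± 0.14, the only positive values. PNU replicates 2 and 3 at 6 h exceeded all PNU libraries at 2 h for 6 members (40.0% of all genes) and lay below them for 29 (26.6% of all genes).

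These calls depended on which libraries were included. No member passed when any one of PNU replicates 2 and 3 at 2 h, PNU replicates 1, 2 and 3 at 6 h or DMSO replicates 1, 2 and 3 at 6 h was left out, and 1, Cdc25b, passed without PNU replicate 1 at 2 h. Without DMSO replicate 1 at 2 h, 8 passed (12.6% of all genes in that direction), and without DMSO replicate 3 at 2 h, 27 passed (16.8% of all genes), all lower at 6 h. DMSO libraries enter here only through the shared estimate of the spread, the low-count filter and the scaling. With near-identical libraries summed into 8, 0 members and 0% of all genes passed.

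Between the DMSO groups, all 52 members had a negative log2 fold change of 6 h over 2 h, where 46.8% of all genes had a positive one, with a median of -0.33 against -0.014 over all genes. Neither members nor other genes passed the test (0% of 17164), by edgeR, DESeq2 or limma-voom for the members. At an unadjusted p under 0.05 there was 1 member, Espl1, against 2.76% of all genes in that direction. Birc5 had the lowest value, with 21.1, 20.8 and 19.4 CPM with DMSO at 6 h, against 20.9, 22 and 45.9 CPM with DMSO at 2 h, a log2 fold change of -0.58 ± 0.30. Only Espl1, Cdc25b and Ncapd2 had all DMSO libraries at 6 h below all at 2 h, against 3.64% of all genes. Without DMSO replicate 3 at 2 h the median was 0.024, so the negative sign of the group rested on that library.

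The PNU effect at 6 h minus that at 2 h had a median log2 difference of -0.062 over the members, against 0.034 over all genes. It was negative for 38 and positive for 14, and positive for 54.0% of all genes. Top2a had the lowest value, -0.41 ± 0.43, and Kif20a the highest, 0.24 ± 0.16. No member passed the test, where 0.0350% of all genes did, and 0 had an unadjusted p under 0.05, against 11.3% of all genes in either direction. Without DMSO replicate 3 at 2 h, 5 members passed with a lower effect at 6 h, Ccna2, Cdk1, Ncaph, Top2a and Tpx2, against 8.19% of all genes in that direction, and the median was -0.42. The comparisons share groups: the 2 h comparison of PNU with DMSO and the time comparison within PNU share the PNU libraries at 2 h, so their values are not independent.

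Further mitotic genes had mostly the same signs. Of 68 further mitotic genes, 67 were positive for PNU over DMSO at 2 h with a median log2 fold change of 0.35, and 59 at 6 h with a median of 0.22, and none passed at either time. Between the DMSO groups, 66 were negative for 6 h over 2 h, with a median of -0.31, and none passed. The sum of the 68 genes was 1572 to 1593 CPM with DMSO at 6 h, against 1523, 1620 and 2324 CPM with DMSO at 2 h. Of the DMSO libraries at 2 h, only replicate 3 stood far above those at 6 h. For PNU at 6 h over PNU at 2 h, 65 were negative and 12 fell, or 17.6% against 8.66% of all genes. Pkmyt1, a kinase that inhibits Cdk1, had a log2 fold change of -0.96 ± 0.15 with an adjusted p of 0.00555, with 10.5, 10.7 and 10.8 CPM with PNU at 6 h, against 18.7, 20.1 and 20.6 CPM with PNU at 2 h. Spc24, a subunit of the Ndc80 complex, had -0.88 ± 0.17 (adjusted p 0.0105), Cenpm, a centromere protein, -0.84 ± 0.20 (adjusted p 0.0227) and Troap -0.65 ± 0.17 (adjusted p 0.0269).

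S phase genes act before mitosis. Between the DMSO groups, all 45 listed were negative for 6 h over 2 h, with a median log2 fold change of -0.41, and none passed. Their sum was 1386 to 1400 CPM with DMSO at 6 h, against 1412, 1464 and 2465 CPM with DMSO at 2 h. All 45 were also negative for PNU at 6 h over PNU at 2 h, with a median log2 fold change of -0.73. Of these, 20 fell, or 44.4% against 8.66% of all genes, of which 52.4% were positive. Uhrf1, which maintains DNA methylation, had 35.8, 49.7 and 48.2 CPM with PNU at 6 h, against 66.3, 78.6 and 79.8 CPM with PNU at 2 h, a log2 fold change of -0.81 ± 0.16 with an adjusted p of 0.0112. Pold1, the catalytic subunit of DNA polymerase delta, had -0.56 ± 0.11 (adjusted p 0.0122), Cdt1, a licensing factor, -0.96 ± 0.21 (adjusted p 0.0155), and Mcm3, a subunit of the replicative helicase, -0.95 ± 0.21 (adjusted p 0.0168). The S phase sum over the summed level of the 52 mitotic genes was 0.731, 0.684 and 0.677 with PNU at 6 h, against 0.805, 0.800 and 0.812 with PNU at 2 h, without overlap. With DMSO it was 0.785, 0.783 and 0.767 at 6 h, against 0.893, 0.790 and 0.815 at 2 h. For PNU over DMSO, 43 of 45 were positive at 2 h with a median of 0.39 and 37 at 6 h with a median of 0.10, and none passed.

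**Figure D5:**
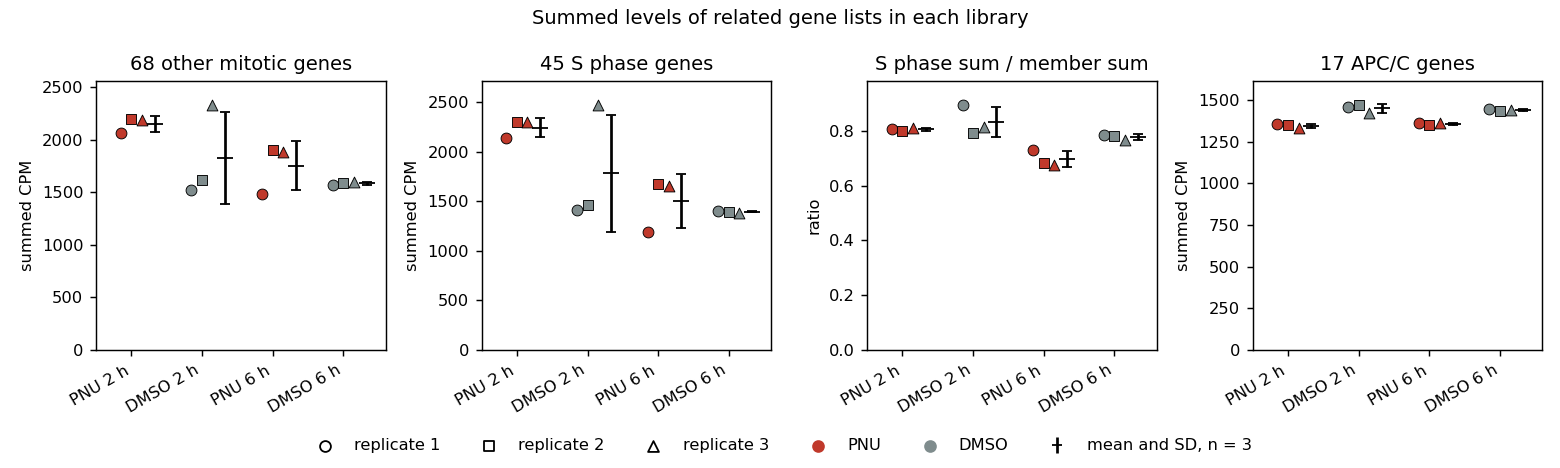
Summed CPM of 68 other mitotic genes, 45 S phase genes and 17 genes of the anaphase-promoting complex, and the ratio of the S phase sum to the sum of the 52 members, in each library by group (symbols: replicates; bars: mean and SD of 3 libraries). The ratio is 0.677 to 0.731 with PNU at 6 h, below all other libraries. The sum for the anaphase-promoting complex is 1331 to 1361 CPM in the PNU libraries and 1421 to 1467 CPM in the DMSO libraries.

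Regulators of these genes were measured as well. Of 15 genes of the DREAM, B-Myb and NF-Y complexes, 3 fell in PNU at 6 h over 2 h, or 20.0% against 8.66% of all genes: E2f4, a repressive E2F (-0.62 ± 0.12, adjusted p 0.00965), Mybl2, which encodes B-Myb (-1.14 ± 0.31, adjusted p 0.0336), and Rbl1, a pocket protein (-0.75 ± 0.22, adjusted p 0.0437). Mybl2 had 7.55, 12.6 and 13 CPM with PNU at 6 h, against 20.5, 24.2 and 25.4 CPM with PNU at 2 h. Of 17 genes of the anaphase-promoting complex and its partners, 2 fell, or 11.8% against 8.66% of all genes, Anapc15 (-0.42 ± 0.12, adjusted p 0.0386) and Anapc1 (-0.23 ± 0.07, adjusted p 0.0446). The sum of these 17 was 1331 to 1357 CPM with PNU at 2 h, against 1421 to 1467 CPM with DMSO at 2 h. At 6 h it was 1348 to 1361 CPM with PNU, against 1434 to 1447 CPM with DMSO. The sum was lower with PNU without overlap at both times, and did not follow the block of the 52 genes. Of all genes tested, 13.6% were lower without overlap at 2 h and 20.8% at 6 h. By gene the 17 were mixed. For PNU over DMSO at 2 h, 7 were positive and 10 negative, with a median log2 fold change of -0.063. At 6 h, 6 were positive and 11 negative, with a median of -0.046. None of these genes passed for PNU over DMSO at either time.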

How the data were processed

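Poly(A) RNA of 12 libraries was sequenced as paired reads of 150 bases. Per the labels' protocols, fastp 0.23.2 trimmed the reads, STAR 2.5.2b placed them on GRCm38, and featureCounts (Subread 1.5.2) assigned them to genes. The deposited values are raw counts, whole numbers with unequal totals, 1 table per library. Strand and multi-mapping settings and the annotation release are not given in the sources used here.

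Groups came from the sample titles. CPM are counts over the library total. edgeR 4.0.16 (R 4.3.3) fitted all 12 libraries with 4 group means after filterByExpr and TMM scaling, with robust quasi-likelihood tests of 5 contrasts. Benjamini-Hochberg adjustment ran over all 17164 genes tested, and an adjusted p under 0.05 counts as passing. SE is the size of the log2 fold change over the square root of F. The pipeline was tested on simulated data. DESeq2 1.42.0 and limma-voom 3.58.1, other scalings and filters and libraries left out were tried as alternatives. Intervals and floors cover counting error only. Libraries with a pairwise coefficient of variation under 0.05 still differed by more than sampling noise (chi-square over degrees of freedom 2.02 to 3.22 over genes, 1 being noise alone) and were kept as separate replicates, with their sum as an alternative.

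The 52 members and all gene lists were chosen with earlier results of these data known. Values in full are given for the first 2 genes of each role, for 8 set genes, for the extremes of each contrast and for members that passed. A few other members are given with single values chosen after these were seen. Of the other lists, up to 4 passing genes of smallest p are named. Promoters, from RefSeq, were matched by symbol.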

Additional observations from a re-analysis of the deposited data

How the results depend on the processing

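The number of members that passed for PNU over DMSO at 2 h, 0, became 49 (25.2% of all genes in that direction) with both DMSO replicate 3 at 2 h and PNU replicate 1 at 6 h left out, with a median log2 fold change of 0.76, and ran between 0 and 48 with 1 library left out (median 0.23 to 0.76). At 6 h it was 48 with both left out, 1 (Hmgb2) with the 6 libraries of the comparison alone, and 0 to 4 with 1 left out. For PNU at 6 h over 2 h, 3 in the fit reported, it was 7 with DESeq2 (13.5% of the members, 11.4% of all genes lower), 24 with both left out (23 lower and Kif20a higher, against 17.6% and 17.9% of all genes), 14 with its own libraries alone (17% of all genes lower), 0 with near-identical libraries summed and 0 without the low-count filter, and 0 to 27 with 1 left out. The difference of the PNU effect gave 14 with both left out (13 lower and 1 higher, against 10.8% and 11.0% of all genes), and 0 to 5 with 1 left out, with a median of -0.42 to 0.093. For DMSO at 6 h over 2 h no setting called a member, and the median was 0.027 with both left out and -0.49 to 0.024 with 1 left out. Where a library was left out, the cause of the change was not tested. The pair left out together was singled out from these same data, so counts without it are descriptions only.

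Signs of small fold changes turned in some settings. For Ckap2 at 2 h the value was 0.061 with both libraries left out and 0.00036 with the stricter filter (-0.13 to 0.059 with 1 left out), and over time in DMSO 0.042 with both left out and 0.0050 with upper-quartile scaling (-0.15 to 0.038). For Kif20a at 2 h it was -0.00065 with upper-quartile scaling (-0.038 to 0.091). With near-identical libraries summed, Smc4 at 6 h had -0.047 (-0.056 to 0.15 with 1 left out) and Cdc25b -0.029 (-0.027 to 0.11). Over time in PNU with both left out, the values were 0.032 for Plk1 (-0.28 to 0.033 with 1 left out), 0.022 for Cenpa (-0.20 to 0.023), 0.089 for Cenpe (-0.28 to 0.090) and 0.039 for Ect2 (-0.32 to 0.040).

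Correlations of the deviations of same-numbered replicates were 0.17, 0.11 and 0.099 between the PNU groups and -0.068 to 0.058 between the other groups compared. The PNU values just miss the criterion of 0.1 in every pair, and PNU replicate 3 at 2 h correlated best with replicate 2 at 6 h (0.10), so the numbers are taken not to pair the samples. With the replicate number as a block, 7 members (13.5%, against 9.09% of all genes lower) passed for PNU at 6 h over 2 h and 0 in the other comparisons. The members' mean levels, 6.68 to 135.9 CPM, stand far above the floor of 3 counts.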

Other observations

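Genes of cell cycle arrest were compared as a counterpart. Of 16 Cdk inhibitor and p53 target genes, 5 rose in PNU at 6 h over PNU at 2 h and 1 fell, where 7.42% of all genes passed higher and 8.66% lower. None passed for PNU over DMSO at either time. At 2 h, 5 were positive and 11 negative for PNU over DMSO, with a median log2 fold change of -0.20. At 6 h, 8 were positive and 8 negative, with a median of 0.0014. For DMSO at 6 h over DMSO at 2 h, 8 were positive and 8 negative, with a median of 0.0066, and none passed. Cdkn1c, the Cdk inhibitor p57, had 7.64, 4.62 and 4.50 CPM with PNU at 6 h, against 1.37, 1.11 and 1.04 CPM with PNU at 2 h, a log2 fold change of 2.19 ± 0.37 with an adjusted p of 0.00694 by edgeR. Every library at 6 h lay above every library at 2 h. Ccng1, a cyclin induced by p53, had 711, 802 and 785 CPM with PNU at 6 h, against 508, 502 and 494 CPM with PNU at 2 h, a log2 fold change of 0.55 ± 0.10 (adjusted p 0.00898). With DMSO, Ccng1 had 657, 680 and 677 CPM at 6 h, against 542, 766 and 559 CPM at 2 h. Trp53inp1, a p53-induced protein, had a log2 fold change of 1.05 ± 0.25 (adjusted p 0.0205) and Cdkn2b, the inhibitor p15, 0.50 ± 0.13 (adjusted p 0.0303). Cdkn2a also rose, and Cdkn2c fell by 0.41 on the log2 scale. Cdkn1a, which encodes the inhibitor p21 and is the most abundant of the list, had 932, 851 and 840.5 CPM with PNU at 6 h, against 880.0, 926 and 899 CPM with PNU at 2 h, with an adjusted p of 0.338.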
